A study of Mus musculus with 6 samples.

Results

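The genes described here are Nr3c1, Nr3c2 and Hsd11b1, 3 of the 31054 genes in the deposited count matrices. They are the mouse glucocorticoid receptor, the mineralocorticoid receptor and the enzyme that activates glucocorticoids inside cells. They were chosen by name from the gene symbols, and were picked from results of the comparison described here, so their differences between groups are given as descriptions, with no test. Lungs of 21-month-old male C57BL/6 mice were digested with Liberase and profiled as single cells, with 1 library per mouse. The 3 mice labelled p16-DTR carried p16-CreERT2 and R26-LSL-DTR, in which the promoter of p16 drives a tamoxifen-dependent Cre that switches on the diphtheria toxin receptor. The 3 control mice carried p16-CreERT2 alone. Every mouse of either group was dosed with tamoxifen (5 days), then 2 weeks later with diphtheria toxin (5 days), and was left for 2 weeks, so the Cre, the tamoxifen and the toxin were common to both groups. Each library mixed 20000 sorted CD45- cells with 9000 CD45+ cells. This set the balance of stromal and blood cells put in, and not their numbers in the lung. The shares of cell classes among the cells retained still varied between libraries.

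Both receptors sit in the cytoplasm bound to chaperones, and move to the nucleus when a steroid binds. The glucocorticoid receptor answers corticosterone, the main glucocorticoid of mice. The mineralocorticoid receptor answers aldosterone and binds corticosterone as well, and is best known for sodium transport in epithelia. Hsd11b1 regenerates corticosterone from its inert 11-keto form, using NADPH that H6pd makes in the endoplasmic reticulum. Hsd11b2 runs the reaction the other way and shields the mineralocorticoid receptor from glucocorticoids. In the lung, glucocorticoids are known for driving maturation before birth and for restraining inflammation.

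Positions are those of GENCODE M21 on GRCm38. Nr3c2 spans chr8:76899442-77245012 on the plus strand and is 345.6 kb long. Hsd11b1 spans chr1:193221634-193264075 on the minus strand, with 1 transcript that starts at the far end and others that start about midway. The counts are per gene and from 3' ends, so they do not separate receptor isoforms or promoters. RefSeq promoter windows (GRCm38.p6, from 250 bases before to 50 after a start) were matched for Nr3c2 and Hsd11b1. The Hsd11b1 window belongs to the inner start, which is known from liver and fat to need C/EBP factors, while lung is known to use the outer one. The stretches below are shown because they hold the letters searched for beside the members' starts, and because Sgk1, a classic target of both receptors, holds a complete glucocorticoid response element; capitals mark the match.
Nr3c2 C/EBP site, chr8:76902080-76902109: ccctgTTGCCCAAtgagaagcgcgcctggc
Nr3c2 CCAAT box, chr8:76902129-76902158: gtttcccccttggCCAATggaaatggctcc
Nr3c2 GC box, chr8:76902150-76902179: aatggctccagcGGGCGGgacagcgacctg
Hsd11b1 CCAAT box, chr1:193242416-193242445: atcccacccaaagCCAATcgttgctctgac
Sgk1 response element, chr10:21993693-21993722: atgcggaaAGAACAGAATGTTCTcggagat
Each motif was searched on both strands. The full element, AGAACA and TGTTCT parted by NNN, was found in 3 of 32851 promoter windows (0.00913%), and the half-site AGAACA, which forms the left arm of the full element, in 19%. CCAAT was found in 37.4% of windows, TTGCNNAA in 10.8% and GGGCGG in 35.7%. The Nr3c2 window held 3 matches to CCAAT, 2 to TTGCNNAA (the one shown overlaps a CCAAT) and 3 to GGGCGG. The Hsd11b1 window held 1 match to CCAAT. Neither window held AGAACA. Of 28 listed glucocorticoid-induced genes, 24 had a window and 1, Sgk1, had the full element.

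The libraries held 254200305 to 344421685 UMIs, and 13025 to 16884 cells per library passed the filters (91156 in all). Marker genes placed 77957 of these cells in classes, and 19 classes with at least 50 cells in every library were analysed. Each class held at least 2 of its own markers among its 10 leading genes. The classical monocyte class held 2 markers of type 2 conventional dendritic cells there as well, and the CD4 T class also led with Il23r and Il17a. Alveolar type 1 cells were shallow, with a median of 1719 UMIs. Levels are given as UMIs of a gene per 1000000 UMIs of the library or class (CPM). Cdkn2a, the gene of p16, measured 7.10, 8.57 and 7.31 CPM in p16-DTR libraries, against 1.15, 2.60 and 2.84 in controls. Loss of p16-expressing cells would lower Cdkn2a in the first group, and the values went the other way. This check therefore did not bear out the labels, and the reason was not tested. It rests on counts per gene over all retained cells, which do not separate the transcripts of Cdkn2a. Below, p16-DTR and control mean the libraries so labelled, and every direction between the groups rests on those labels. The first control library held the most alveolar fibroblasts, 33.6% of retained cells against 15.5% to 22.3% in the others.

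Nr3c2 was the member that separated the groups. Over all retained cells it stood at 108, 106 and 93.5 CPM in libraries labelled p16-DTR and at 171, 156 and 142 in controls. Every p16-DTR library was below every control library, at a ratio of 0.656 and a log2 fold change of -0.56 (SE 0.096, edgeR). In that comparison edgeR's quasi-likelihood test called 0.0% of genes at an adjusted p under 0.05, and 22.5% of the 21630 genes tested were likewise lower in libraries labelled p16-DTR with no overlap. In bulk sums such as these, fewer cells of a type and less RNA per cell cannot be told apart. With every class held at its mean share, Nr3c2 stood at 110, 108 and 97.5 against 161, 153 and 140, and the groups again did not overlap (log2 ratio of mean CPM -0.52, beside -0.61 as measured). Without the first control library, its highest, the log2 fold change was -0.48.

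Nr3c1 showed no such separation. Its levels over all cells were 287, 315 and 288 CPM in libraries labelled p16-DTR and 293, 288 and 300 in controls. The second p16-DTR library was the highest and the groups overlapped (log2 fold change 0.06, SE 0.055). Hsd11b1 stood at 519, 410 and 347 in libraries labelled p16-DTR against 622, 440 and 403 in controls. These groups overlapped as well (log2 fold change -0.15, SE 0.22), and the first library of each group had both the most Hsd11b1 and the largest share of alveolar fibroblasts in its group. At mean class shares the sign turned, with 528, 466 and 442 against 451, 464 and 404 (log2 ratio of mean CPM 0.12, beside -0.20 as measured). Without the first control library the unweighted edgeR log2 fold change was 0.07.

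**Figure D1:**
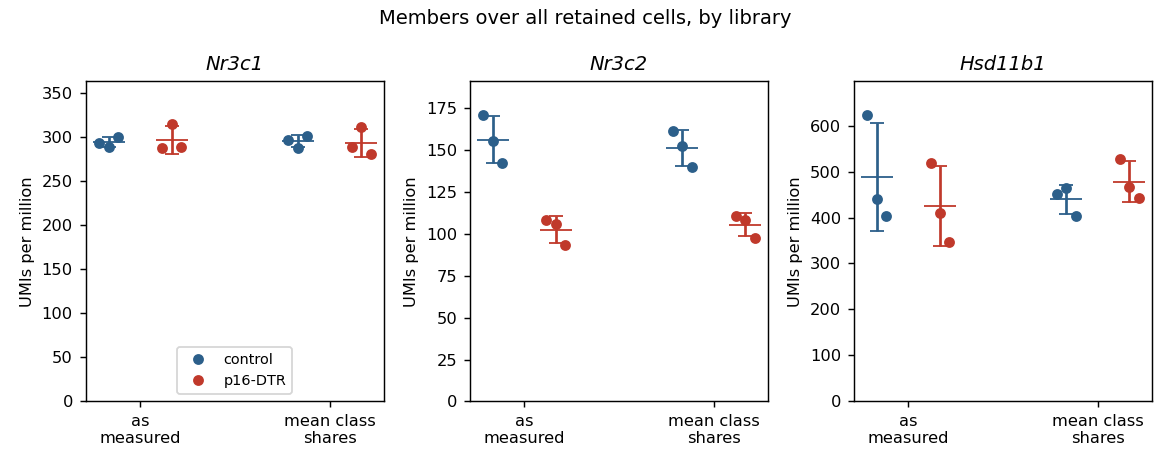
CPM of the 3 members over all retained cells (vertical axis), as measured and with each class held at its mean share; points are libraries, bars the mean and SD of 3. The Nr3c2 values of p16-DTR libraries, 93.5 to 108, lie below all controls, while the other members overlap.

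Across cell classes Nr3c2 was highest in lymphatic endothelium, at 540 ± 52.7 CPM (SD, n = 6 libraries). In controls arterial endothelium followed at 302 ± 53.7, venous endothelium at 268 ± 28.8, pericytes at 256 ± 18.5 and peribronchial fibroblasts at 222 ± 16 (SD, n = 3). In p16-DTR libraries pericytes followed at 188 ± 6.7, arterial endothelium at 186 ± 27.4, venous endothelium at 160 ± 11.5 and alveolar fibroblasts at 144 ± 14.8. The lymphatic level stood clear of the next class in every library, whereas over all 6 libraries each class from arterial endothelium down to alveolar type 1 cells overlapped the next. Blood cells of the myeloid lineage were lowest, with 14.9 ± 4.6 in neutrophils, 12.7 ± 4.2 in nonclassical monocytes and 4.62 ± 1.0 in classical monocytes. The highest class was 117-fold above the lowest. Here and below, cells with at least 5000 UMIs were thinned to 5000. Shallower cells were left out, among them 123 p16-DTR and 83 control lymphatic cells. A Nr3c2 UMI was then found in 76.3% ± 5.3 of lymphatic endothelial cells and in 1.20% ± 0.67 of classical monocytes. Before thinning, over all cells of these classes, the shares were 85.2% and 4.91%, at median depths of 12954 and 29273 UMIs. Free RNA was not measured, and a share as low as that of classical monocytes is not read as expression.

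Lower Nr3c2 values in p16-DTR libraries were found through the blood vessel wall. General capillary endothelial cells had 125, 125 and 109 CPM against 203, 183 and 164 in controls. Aerocytes, the capillary cells of gas exchange, had 100, 91.6 and 81.3 against 165, 138 and 126. Venous endothelium had 170, 148 and 164 against 268, 297 and 240. In these 3 classes the lowest control lay above the highest p16-DTR library, with log2 fold changes of -0.58 (SE 0.083), -0.61 (SE 0.10) and -0.73 (SE 0.099). Of all genes tested in them, 19.6%, 14.9% and 12.9% were likewise lower with no overlap. Arterial endothelium had 191, 211 and 156 against 336, 331 and 240 (log2 fold change -0.69, SE 0.15). Pericytes had 181, 195 and 188 against 235, 267 and 266 (-0.45, SE 0.10). Beside these values, the 7 general capillary markers summed to 2261 to 2370 CPM in p16-DTR arterial cells and 1837 to 2154 in controls, with 5 of 5 tested higher, 0 called and none at 0. The 7 arterial markers summed to 370 to 384 in p16-DTR aerocytes and 306 to 323 in controls, with 6 of 7 higher, 1 called and none at 0. The 8 alveolar fibroblast markers summed to 41.6 to 63.4 in p16-DTR aerocytes and 64.5 to 102 in controls, with 8 of 8 lower and 0 called, and the 7 nonclassical monocyte markers to 1079 to 1225 against 921 to 982, with 3 of 4 tested higher and 1 called. In general capillary cells the 6 lymphatic markers summed to 1030 to 1162 against 646 to 857 and the 7 venous markers to 624 to 709 against 508 to 591. Only sums are given for these lists, and a sum can rest on few of its markers. In pericytes the 7 smooth muscle markers summed to 1898 to 2325 against 1332 to 1459, with 5 of 5 tested higher and 2 called. In each of the 10 classes in which Nr3c2 was lower with no overlap, 3 to 11 of 37 marker lists of other cells separated the groups, in either direction. Their part in the Nr3c2 values was not tested. Lymphatic endothelium, the class with the highest level, differed from these vessels in showing overlap, at 496, 630 and 486 against 518, 561 and 548 (-0.03, SE 0.11).

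Fibroblasts and epithelium gave the same order. Alveolar fibroblasts had 159, 143 and 130 CPM in libraries labelled p16-DTR against 225, 206 and 193 (log2 fold change -0.51, SE 0.096). Adventitial fibroblasts had 100, 74.3 and 75.8 against 138, 126 and 129 (-0.65, SE 0.11). Peribronchial fibroblasts had 133, 155 and 119 against 233, 228 and 203 (-0.67, SE 0.12). None of the 3 fibroblast classes had a p16-DTR library inside the control range. Of all genes tested in them, 16.2%, 9.87% and 14.0% were likewise lower with no overlap. Alveolar type 2 cells, the surfactant makers, had 97.7, 92.3 and 78.9 against 161, 161 and 142, at the lowest log2 fold change of any class (-0.74, SE 0.10). Ciliated cells were closer, at 125, 141 and 148 against 171, 156 and 166 (-0.24, SE 0.080). Alveolar type 1 cells overlapped, at 54.4, 53.9 and 35.0 against 84.5, 78.7 and 36.9, from 21 to 122 UMIs per library.

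CD4 T cells had 99.9, 98.8 and 92.5 CPM in libraries labelled p16-DTR and 77.2, 67.2 and 62.8 in controls, so that every p16-DTR library was higher (log2 fold change 0.48, SE 0.090). B cells, CD8 T cells, natural killer cells, neutrophils and both monocyte classes overlapped. The median log2 fold change was -0.59 over the 12 CD45- classes, all of them negative, and 0.19 over the 7 CD45+ classes, of which 3 were negative. Over all 19 it was -0.40, and -0.22 without the first control library. The value of 0.19 is that of classical monocytes (SE 0.25), and apart from CD4 T cells the positive values came from the 3 myeloid classes, whose levels were lowest. The difference between the CD4 T cells and the stromal classes was not tested. Beside the CD4 T values, the 8 natural killer markers summed to 98.5 to 151 CPM in p16-DTR libraries and to 34.0 to 38.6 in controls within the same class, with all 5 tested markers higher, 2 of them called and none at 0. Their part in the result was not tested.

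In all, Nr3c2 passed the filter on low counts in 19 of 19 classes. It was lower with no overlap in 10 classes and higher with no overlap in 1, where 11.6% and 7.9% of all 226960 gene and class pairs tested were so. Within those 10 classes the share of genes lower ran from 7.61% in pericytes to 19.6% in general capillary cells. In CD4 T cells 11.8% of genes were higher with no overlap. Since the genes were picked on this contrast, nothing is read from these counts. After thinning, the share of cells with a Nr3c2 UMI was 33.7% ± 1.3 against 44.6% ± 3.4 in general capillary cells, 41.0% ± 3.4 against 53.6% ± 2.6 in alveolar fibroblasts and 24.7% ± 2.1 against 18.5% ± 1.5 in CD4 T cells (SD, n = 3 each). In aerocytes (31.9% ± 4.0 against 40.2% ± 3.4), ciliated cells (46.3% ± 5.3 against 50.2% ± 5.9) and pericytes (57.2% ± 3.5 against 60.2% ± 4.5) the thinned shares of the groups overlapped, although their CPM did not. In pericytes the share before thinning was 75.2% against 72.1%. Genes of 200 to 600 kb, near Nr3c2 in length, had median log2 fold changes between -0.15 and 0.05 over the classes. Over all cells 16.1% of these long genes lay below Nr3c2, beside 10.8% of all genes. In general capillary cells the shares were 6.24% and 7.08%, in alveolar fibroblasts 10.8% and 8.89%, in peribronchial fibroblasts 12.3% and 5.21%, and in ciliated cells 24.2% and 12.9%. The part of gene length in the Nr3c2 values was not tested.

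**Figure D2:**
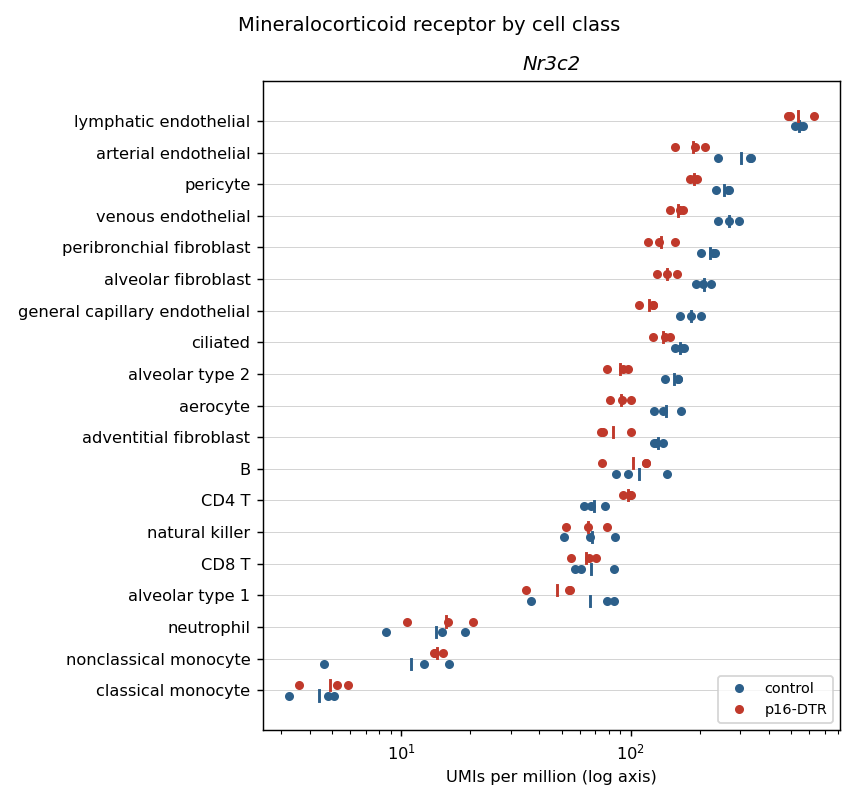
Nr3c2 CPM (horizontal log axis) in 19 cell classes, ordered by mean level; points are libraries and vertical ticks group means. The p16-DTR points lie to the left of all controls in 10 stromal and epithelial classes and to the right in CD4 T cells.

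Nr3c1 was found in every class. CD4 T cells had the highest level, 623 ± 87.4 CPM, followed by pericytes at 538 ± 47.3, lymphatic endothelium at 381 ± 31.2, alveolar type 1 cells at 379 ± 44.7 and neutrophils at 377 ± 35.8 (SD, n = 6). CD4 T cells and pericytes overlapped each other, and pericytes stood above the third class in every library. From lymphatic endothelium to classical monocytes (160 ± 7.8) each class overlapped the next. Alveolar type 2 cells at 123 ± 8.1 and ciliated cells at 51.1 ± 7.3 were each below the class before them in every library. The span from CD4 T to ciliated cells was 12.2-fold, the narrowest of the 3 members. A Nr3c1 UMI was found in 90.8% ± 0.97 of thinned pericytes and 23.0% ± 3.2 of thinned ciliated cells (91.8% and 68.3% before thinning).

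Between the groups Nr3c1 levels lay close together in every class. Its log2 fold changes ran from -0.22 in peribronchial fibroblasts to 0.20 in CD4 T cells, with a median of -0.02 beside -0.0013 over all gene and class pairs. CD4 T cells had 635, 749 and 625 CPM against 649, 478 and 601, and overlapped. Pericytes, with the same smooth muscle markers, had 543, 539 and 451 against 555, 546 and 595, lymphatic endothelium 364, 423 and 330 against 384, 390 and 391. The pericyte groups did not overlap, with p16-DTR lower, nor did those of aerocytes and peribronchial fibroblasts, while arterial endothelium was higher with no overlap (322, 346 and 321 against 284, 311 and 314). Of all pairs 11.6% were lower and 7.9% higher with no overlap, and nothing is read from the Nr3c1 classes. Alveolar type 1 cells had 358, 396 and 302 against 432, 397 and 390, and neutrophils had 360, 373 and 337 against 355, 436 and 400.

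Hsd11b1 was a gene of alveolar fibroblasts and pericytes. Alveolar fibroblasts had 1594 ± 149 CPM (SD, n = 6) and held 84.4% of all Hsd11b1 UMIs, although they held 24.4% of all UMIs. Pericytes, the contractile cells of capillaries, followed at 947 ± 106. Natural killer cells at 292 ± 33.6, neutrophils at 218 ± 33.7 and adventitial fibroblasts at 202 ± 15.5 came next. Alveolar fibroblasts and pericytes each stood clear of the next class in every library, while natural killer cells overlapped neutrophils and neutrophils overlapped adventitial fibroblasts. Peribronchial fibroblasts, by contrast, had only 10.4 ± 6.1. Epithelial and endothelial classes had 4.88 to 10.9, and the highest class was 327-fold above the lowest. After thinning, an Hsd11b1 UMI was found in 97.1% ± 0.39 of alveolar fibroblasts, 94.8% ± 2.4 of pericytes, 68.7% ± 3.9 of natural killer cells and 45.8% ± 4.5 of neutrophils (96.5%, 91.9%, 88.2% and 57.4% before thinning). In general capillary cells it was 3.06% ± 1.0 (8.22% before thinning, median depth 15575 UMIs), a share too low to be read as expression, since free RNA was not measured. General capillary cells of the first control library, which had the most alveolar fibroblasts, had 9.73 CPM against 4.59 to 7.15 in the other 5.

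The group differences of Hsd11b1 were small and mixed. Alveolar fibroblasts had 1838, 1627 and 1565 CPM in libraries labelled p16-DTR against 1515, 1631 and 1390 in controls, with overlap (log2 fold change 0.17, SE 0.10). Pericytes had 1049, 1090 and 950 against 873, 906 and 812, with every p16-DTR library higher (0.25, SE 0.095). Natural killer cells had 315, 306 and 330 against 264, 296 and 240, also without overlap (0.25, SE 0.094). CD4 T cells were the third such class with 94.4, 107 and 109 against 84.1, 82.0 and 83.4 (0.30, SE 0.070), in the class whose natural killer markers were higher in p16-DTR libraries; the part of those markers was not tested. Neutrophils went the other way, with 217, 219 and 154 against 248, 240 and 230 (-0.20, SE 0.14), and adventitial fibroblasts overlapped at 225, 190 and 216 against 198, 196 and 186. Venous endothelium was higher without overlap at 6.09, 7.28 and 7.19 against 6.03, 4.32 and 3.35, a level that rests on 25 to 39 UMIs per library and is not read as expression. Hsd11b1 passed the filter in 18 of 19 classes, all but alveolar type 1; it was higher with no overlap in 4 and lower with no overlap in 1 (7.9% and 11.6% of all pairs), from which nothing is read. Beside the pericyte values stand the smooth muscle markers given above, higher in p16-DTR pericytes with none at 0. Their part in the result was not tested.

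**Figure D3:**
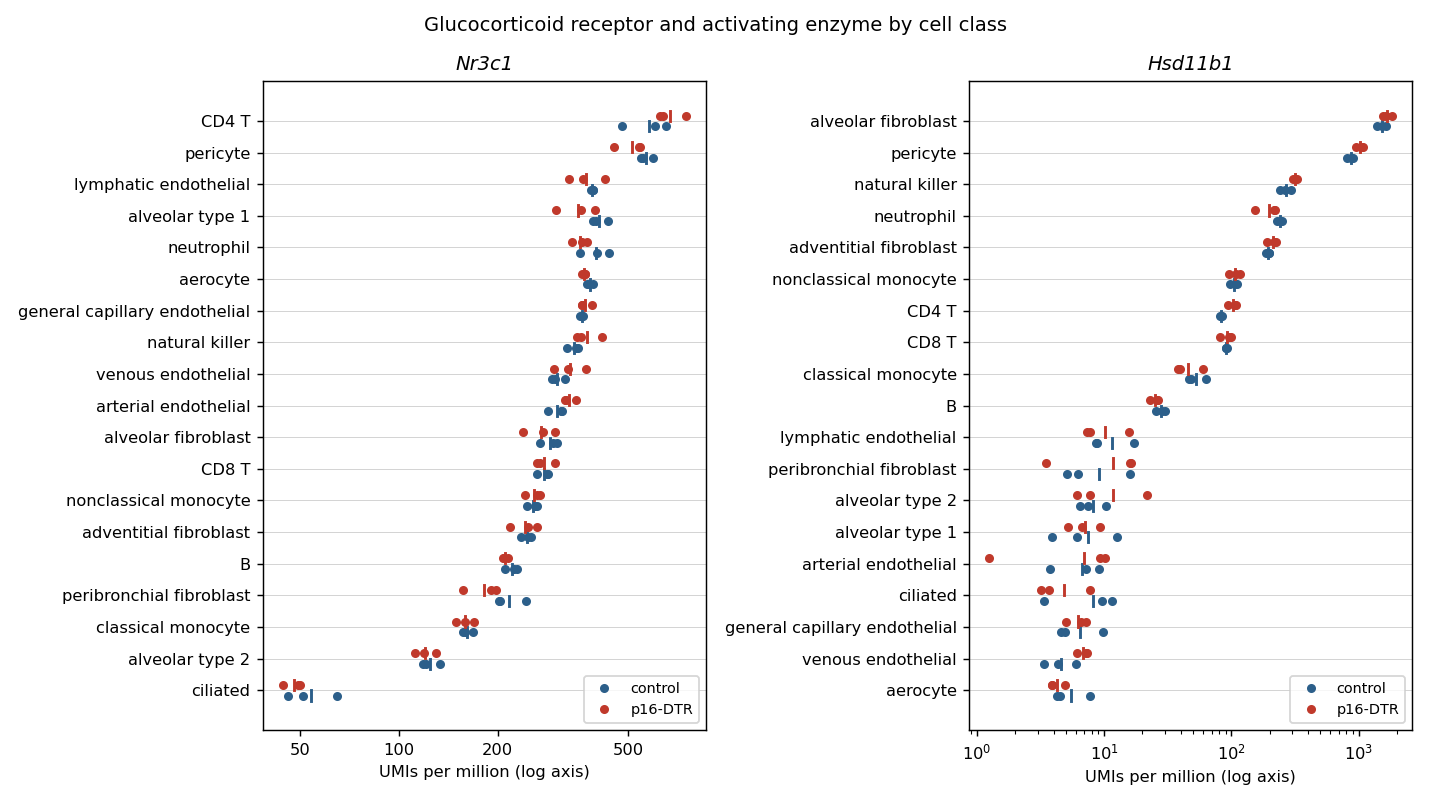
Nr3c1 (left) and Hsd11b1 (right) CPM (horizontal log axes) in 19 cell classes; points are libraries and vertical ticks group means. Nr3c1 spans 12.2-fold and Hsd11b1 327-fold across classes, and the groups lie close together in most classes.

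The members were also set side by side within cells. In thinned alveolar fibroblasts 67.9% of cells had a UMI of both Nr3c1 and Hsd11b1, beside 67.8% from the product of the single shares. For Nr3c2 and Hsd11b1 the values were 46.0% and 45.9%. Nearly all of these fibroblasts had an Hsd11b1 UMI, so both pairs had little room to depart from the product. In lymphatic endothelium Nr3c1 and Nr3c2 met in 59.7% of cells beside 59.1%. Some other classes departed further. Nr3c1 and Nr3c2 met in 29.5% of peribronchial fibroblasts beside 26.9%, above the product in 6 libraries. Nr3c2 and Hsd11b1 met in 5.29% of CD8 T cells beside 6.09%, above the product in 0 libraries. Over the 19 class means, which share libraries, the Pearson correlation of log2 levels was 0.10 between the receptors, 0.30 between Nr3c1 and Hsd11b1 and -0.25 between Nr3c2 and Hsd11b1. Among 14010 genes, those with the pattern most like Nr3c1 over the 19 classes were Tprgl (r = 0.87), Herpud2, Rab2a, Chm and Usp25. Those most like Nr3c2 were A230050P20Rik (r = 0.91), Ttc3, Pfas, Ttc21b and Slc30a4, and those most like Hsd11b1 were Smim4 (r = 0.81), Flna, Dock10, Pik3r1 and Ptgir. With Spearman correlations, 2, 0 and 1 of the 5 genes remained for Nr3c1, Nr3c2 and Hsd11b1.

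The partners of Hsd11b1 were read next. H6pd, which supplies its cofactor, had its highest levels in the same stromal classes, with 281, 237 and 246 CPM in p16-DTR alveolar fibroblasts against 241, 243 and 216 in controls, then pericytes (113 ± 12.6) and adventitial fibroblasts (96.2 ± 6.2). Its correlation with Hsd11b1 over the 19 class means was 0.60. In alveolar fibroblasts its log2 fold change was 0.15 (SE 0.089, edgeR adjusted p = 0.38). Hsd11b2, the inactivating enzyme, was scarce, with 0.63 to 1.10 CPM over all cells. Its highest mean over the 6 libraries was in aerocytes, with 5.19, 5.92 and 4.90 against 3.23, 3.93 and 4.02 (log2 fold change 0.55, SE 0.19, edgeR adjusted p = 0.20). Arterial endothelium had 4.30, 10.0 and 6.17 against 1.36, 1.24 and 0.91, from 49 UMIs in all, and did not pass the filter. Among 13 enzymes, carriers and pumps, 7 were tested over the classes and 2 of 75 tests were called, which is 2.67% beside 0.645% of all gene and class pairs. Both were efflux pumps in the CD4 T class, where 2.46% of all genes tested were called. The natural killer markers of that class summed to 98.5 to 151 CPM in p16-DTR libraries and 34.0 to 38.6 in controls, and their part in these calls was not tested. Abcb1a, which exports glucocorticoids, rose from 184 ± 22.1 to 279 ± 7.05 CPM (log2 fold change 0.58, SE 0.087, edgeR adjusted p = 0.015), a call lost without p16-DTR 2 or control 2. Its relative Abcb1b fell from 213 ± 59.5 to 104 ± 4.4 (log2 fold change -1.05, SE 0.17, edgeR adjusted p = 0.018), a call lost without p16-DTR 2 or 3. The 6 listed regulators of Hsd11b1, which include the C/EBP factors and Pparg, were called in 0 of 88 tests by edgeR, with 19 at an unadjusted p under 0.05 (21.6% beside 13.9% of all pairs) and 2 called by DESeq2 (2.27% beside 2.61%).

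Genes that glucocorticoids induce were higher more often than lower. Over all cells 0 of 28 were called, with 7 at an unadjusted p under 0.05 and 6 called by DESeq2, where edgeR called 0 of all 21630 genes, 5043 at an unadjusted p under 0.05, and DESeq2 2769. Over the classes 13 of 427 tests were called, 9 higher and 4 lower (3.04% beside 0.645% of all pairs, of which 0.271% higher and 0.375% lower). The list's median log2 fold change over the classes was 0.18 beside -0.0013 for all pairs, and 22.5% of its tests were higher with no overlap beside 7.9% of all pairs. Of those 96 higher tests, 15 were of Fkbp5, 13 of Tsc22d3, 11 of Zbtb16 and 8 of Ddit4. A gene was tested in up to 19 classes, which share the same 6 libraries. This list was written with earlier results of these data known.

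Fkbp5, a co-chaperone of the receptors and a standard readout of glucocorticoid action, stood at 174, 120 and 225 CPM over all cells in libraries labelled p16-DTR and at 46.5, 98.2 and 82.6 in controls. The groups did not overlap (log2 fold change 1.24, SE 0.33, edgeR adjusted p = 0.14). Its log2 fold change was positive in 19 of 19 classes, which share the same 6 libraries, with a median of 1.15. In 15 classes Fkbp5 was higher with no overlap, beside 7.9% of all gene and class pairs. It rose in natural killer cells from 75.2, 102 and 98.4 in controls to 165, 146 and 201 (log2 fold change 0.88, SE 0.14, edgeR adjusted p = 0.014). It rose in aerocytes from 0.78, 1.21 and 1.87 to 6.61, 4.91 and 8.54 (log2 fold change 2.33, SE 0.33, edgeR adjusted p = 0.020), from 229 UMIs in all. Those aerocyte levels are as low as the Hsd11b1 levels not read as expression above, and the part of free RNA was not tested. The natural killer call was lost without p16-DTR 1, control 1 or control 3, and the aerocyte call without p16-DTR 1, p16-DTR 3 or control 1. The first control library was the lowest of the controls in 19 of 19 classes, and without it the median was 0.83.

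Tsc22d3, which encodes the anti-inflammatory protein GILZ, gave a like pattern. It stood at 348, 306 and 381 CPM over all cells against 148, 254 and 272 (log2 fold change 0.67, SE 0.22, edgeR adjusted p = 0.17). It was positive in 19 of 19 classes, which share the same 6 libraries, with a median of 0.54. It was higher with no overlap in 13, beside 7.9% of all gene and class pairs. It rose in aerocytes from 131, 161 and 171 to 214, 235 and 287 (log2 fold change 0.70, SE 0.12, edgeR adjusted p = 0.029), a call lost without p16-DTR 2, p16-DTR 3, control 1 or control 3. The first control library was the lowest of the 6 in 18 classes, and without it the median was 0.39. Zbtb16 and Ddit4, 2 further induced genes named after their values were seen, had positive log2 fold changes in 19 of 19 and 18 of 18 classes tested. Other genes of the list, also named after their values were seen, went mostly the other way. Bcl6 was negative in 14 of 19 classes, Nfkbia in 11 of 19 and Angptl4 in 9 of 13. Per1, a clock gene with a glucocorticoid response, had 101, 96.7 and 103 against 83.9, 99.4 and 98.0 over all cells (log2 fold change 0.15, SE 0.072, edgeR adjusted p = 0.27).

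**Figure D4:**
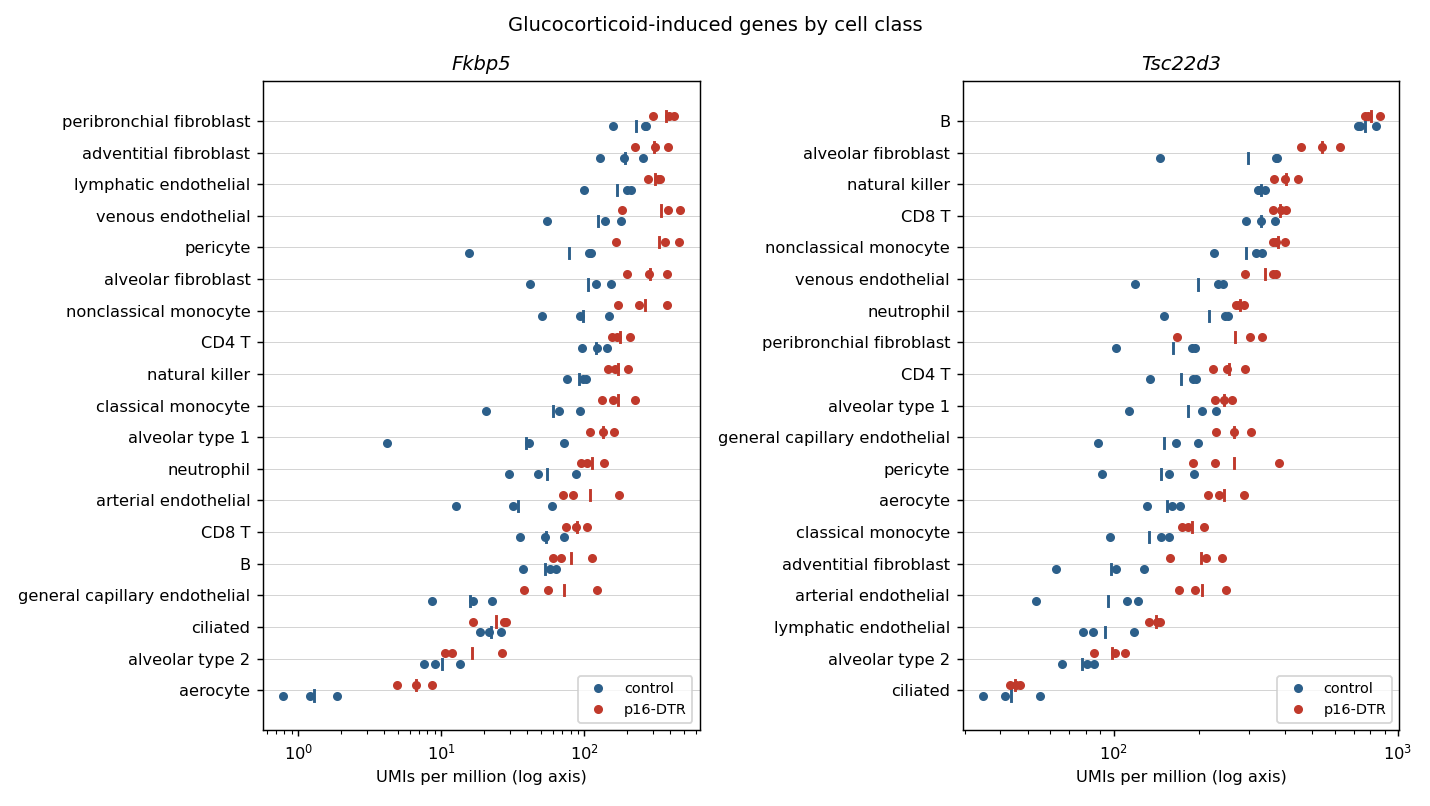
Fkbp5 (left) and Tsc22d3 (right) CPM (horizontal log axes) in 19 cell classes; points are libraries and vertical ticks group means. The p16-DTR points lie to the right of all controls in 15 classes for Fkbp5 and 13 for Tsc22d3, and 1 control library is lowest in most classes.

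Other induced genes were called in 1 or 2 classes each, some higher and some lower. Fam107a, an actin-binding stress gene, rose in general capillary cells from 8.20, 11.7 and 10.7 CPM to 21.3, 21.7 and 32.5 (log2 fold change 1.34, SE 0.20, edgeR adjusted p = 0.039), a call that held only without p16-DTR 2. It rose in venous endothelium from 46.1, 50.1 and 74.7 to 110, 109 and 157 (log2 fold change 1.14, SE 0.19, edgeR adjusted p = 0.019), a call lost without p16-DTR 3, control 1 or control 2, and with a stricter gate on cells (edgeR adjusted p = 0.071). Klf9, a transcription factor induced by the receptor, rose in CD4 T cells from 38.4, 33.0 and 38.8 to 83.1, 62.4 and 68.0 (log2 fold change 0.93, SE 0.13, edgeR adjusted p = 0.012), a call lost without control 3. Anxa1, which encodes an anti-inflammatory phospholipid binder, fell in CD4 T cells from 93.9, 105 and 100 to 63.4, 68.7 and 76.8 (log2 fold change -0.54, SE 0.083, edgeR adjusted p = 0.018), a call lost without p16-DTR 2, control 2 or control 3. The Anxa1 and Klf9 values come from the same CD4 T class as the natural killer markers above.

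The list of mineralocorticoid and sodium transport genes shares Tsc22d3, Per1, Sgk1 and Lcn2 with the induced list. Of 176 tests over the classes 4 were called, 1 higher and 3 lower (2.27% beside 0.645% of all pairs, of which 0.271% higher and 0.375% lower). Sgk1, the kinase that keeps sodium channels at the membrane, overlapped over all cells at 207, 179 and 203 CPM against 151, 221 and 216. It fell in venous endothelium from 275, 311 and 304 to 230, 194 and 193 (log2 fold change -0.51, SE 0.094, edgeR adjusted p = 0.025), and the call was lost without p16-DTR 2, p16-DTR 3, control 2 or control 3, and with the stricter gate (edgeR adjusted p = 0.099). Its log2 fold change was negative in 15 of 19 classes. Tsc22d3 in aerocytes, above, was the one higher. The remaining calls were in peribronchial fibroblasts, where Kcnma1, a potassium channel, fell from 403, 316 and 376 to 257, 181 and 239 (log2 fold change -0.66, SE 0.13, edgeR adjusted p = 0.039). Atp1b1, a sodium pump subunit, fell there from 30.6, 36.4 and 25.9 to 15.8, 15.7 and 17.9 (log2 fold change -0.88, SE 0.19, edgeR adjusted p = 0.043). The Kcnma1 call held only without p16-DTR 1 and the Atp1b1 call only without control 3, and DESeq2 gave Atp1b1 an adjusted p of 0.062. Scnn1a, a subunit of the epithelial sodium channel, named after its values were seen, was highest in alveolar type 1 cells at 826 ± 45.7. Between the groups within that class its edgeR adjusted p was 0.78, and the order of classes was not tested.

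**Figure D5:**
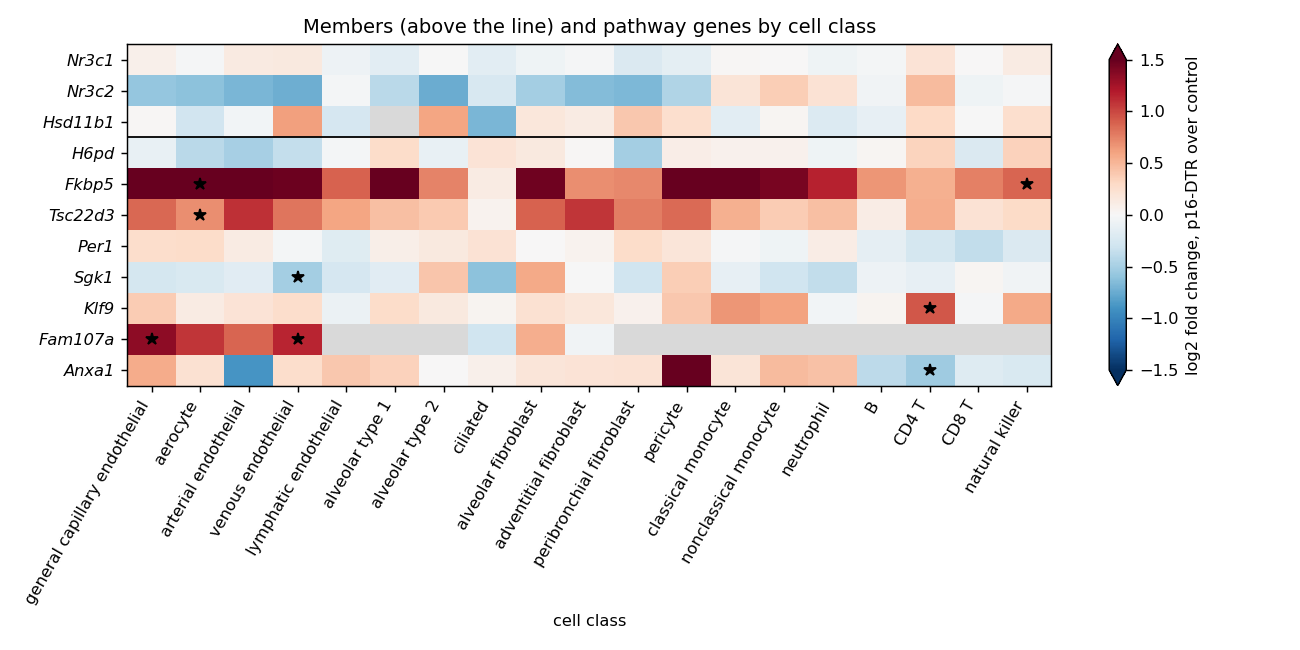
Log2 fold changes (colour, p16-DTR over control, limited to 1.5 either way) of the members and of pathway genes in 19 cell classes; stars mark edgeR calls for pathway genes and grey marks classes not tested. The row of Nr3c2 is negative in all 12 CD45- classes, and the rows of Fkbp5 and Tsc22d3 are positive in 19 of 19.

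Receptor partners came next. Of 304 tests of 16 chaperones edgeR called 2, both Fkbp5 (0.658% beside 0.645% of all pairs), with 108 at an unadjusted p under 0.05 (35.5% beside 13.9%) and 29 called by DESeq2 (9.54% beside 2.61%). Of the chaperone tests 29.3% were higher with no overlap beside 7.9% of all pairs. Hsp90ab1, the constitutive Hsp90 named after its values were seen, was higher with no overlap in 13 classes. Of 257 tests of 14 coregulators 1 was called (0.389%), that of Ppargc1a, a coactivator of mitochondrial genes, which fell in peribronchial fibroblasts from 39.7, 29.1 and 30.7 CPM to 15.8, 7.8 and 13.3 (log2 fold change -1.36, SE 0.24, edgeR adjusted p = 0.021). That call was lost without p16-DTR 2, p16-DTR 3, control 1 or control 2. Among other receptors of the family, Esrrg, an orphan receptor, fell in aerocytes from 31.3, 35.9 and 27.3 to 21.9, 18.1 and 20.4 (log2 fold change -0.62, SE 0.12, edgeR adjusted p = 0.046), and the call was lost in each of the 6 fits without 1 library.

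Inflammatory genes that glucocorticoids repress went both ways. Of 193 tests 6 were called, 2 higher and 4 lower (3.11% beside 0.645% of all pairs, of which 0.271% higher and 0.375% lower). Cxcl1, a neutrophil attractant, fell in alveolar fibroblasts from 98.7, 55.0 and 39.6 CPM to 15.9, 14.4 and 16.9 (log2 fold change -2.02, SE 0.30, edgeR adjusted p = 0.047), a call lost without any 1 p16-DTR library. It fell in peribronchial fibroblasts from 85.7, 71.5 and 56.2 to 26.9, 26.1 and 24.3 (log2 fold change -1.43, SE 0.17, edgeR adjusted p = 0.013), a call lost without p16-DTR 3 or control 2. Ptgs2, which makes prostaglandins, fell in venous endothelium from 339, 234 and 203 to 102, 142 and 88.7 (log2 fold change -1.20, SE 0.21, edgeR adjusted p = 0.021), a call lost without p16-DTR 1 or 3. The chemokine Ccl5 rose in CD4 T cells from 166, 244 and 310 to 1531, 1351 and 1256 (log2 fold change 2.50, SE 0.20, edgeR adjusted p = 0.0013), a call that held without any 1 library. Ccl4 rose there from 3.55, 13 and 4.16 to 52.7, 25.9 and 25.7 (log2 fold change 2.29, SE 0.47, edgeR adjusted p = 0.044), a call that held only without control 2. Both are genes that natural killer cells express as well.

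Genes known to respond to tissue dissociation were called lower mostly in endothelial classes. Of 279 tests 15 were called, 1 higher and 14 lower (5.38% beside 0.645% of all pairs, of which 0.271% higher and 0.375% lower). Egr1, an immediate early factor, fell in 5 classes, among them venous endothelium, from 1991, 1397 and 1477 CPM to 609, 770 and 817 (log2 fold change -1.13, SE 0.15, edgeR adjusted p = 0.011). Junb fell in 3 endothelial classes, and Nr4a1 and Zfp36 in 2 classes each. In venous endothelium Nr4a1 went from 221, 220 and 213 to 73.7, 88.8 and 79.3 (log2 fold change -1.42, SE 0.088, edgeR adjusted p = 0.00035). The calls of Egr1, Nr4a1 and Zfp36 in venous endothelium held without any 1 library, and the other calls of Egr1, Junb, Nr4a1 and Zfp36 were each lost without control 1, among other libraries. With the stricter gate the Egr1 calls in arterial endothelium and CD4 T cells, the Junb calls in arterial and venous endothelium and the Nr4a1 call in CD4 T cells were lost as well (edgeR adjusted p = 0.15, 0.083, 0.22, 0.099 and 0.069). Egr1 fell in lymphatic endothelium as well (log2 fold change -0.81, SE 0.12, edgeR adjusted p = 0.020), where Nr3c2 overlapped, a call lost without p16-DTR 3 or any 1 control. The part of dissociation in the Nr3c2 values was not tested.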

How the data were processed

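Single-cell RNA of 6 lungs was analysed from deposited matrices of raw UMI counts per gene and barcode, written by Cell Ranger 8.0.1 against mm10, per the file headers and the submitters' processing notes. The members and gene lists were chosen with earlier results of these data known. Cells needed 300 genes, 500 UMIs and a mitochondrial share no higher than 15%. Cells were placed in 36 marker classes by the mean scaled level of each class's markers (best score at least 0.25, second score in the same lineage at most 0.8 of it, other lineages at most 0.55), with no doublet caller. This left 13199 cells without a class, 4361 of them for a second lineage, and 3765 classified cells lay near a limit. Libraries shared 59 to 94 barcodes pairwise. Counts were summed per library and class, expressed per 1000000 UMIs (CPM), and tested with edgeR 4.0.16 (filterByExpr, TMM, quasi-likelihood, Benjamini-Hochberg within a class, R 4.3.3), with DESeq2 1.42.0 as an alternative. The procedure was checked on simulated counts. P-values reflect spread among 3 mice per group. Genes named were the members, Hsd11b2, H6pd, Fkbp5, Tsc22d3, Per1 and Sgk1, up to 4 genes per list called in the most classes in 1 direction (ties by the smaller adjusted p), and the 5 genes most like each member. Zbtb16, Ddit4, Bcl6, Nfkbia, Angptl4, Hsp90ab1, Scnn1a, Hspa1a, Hspa1b, Hsp90aa1, Fos, Jun and Atf3 were named after their values were seen. Shares were thinned to 5000 UMIs per cell. Python 3.11.15 was used. Other size factors, filters, gates, a replicate block and fits without 1 library were tried; those of Fkbp5 and Tsc22d3 without 1 library were chosen after seeing the data. One gene of the other-receptor list is not reported here.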

Additional observations from a re-analysis of the deposited data

Results flagged for a closer look

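Some members lay on opposite sides of the controls in different classes, with all libraries of each group apart. These differences were not tested, and their directions rest on labels that the Cdkn2a values did not bear out. Nr3c2 had a log2 fold change of 0.48 in CD4 T cells and a median of -0.63 over the 10 classes in which it was lower (-0.40 over all 19, and -0.22 over all 19 without control 1). Nr3c1 had 0.13 (SE 0.10) in arterial endothelium and a median of -0.15 over the 3 classes in which it was lower. Those were aerocytes (-0.02, SE 0.047), pericytes (-0.15, SE 0.099) and peribronchial fibroblasts (-0.22, SE 0.12), and nothing is read from the Nr3c1 classes. Hsd11b1 had 0.61 in venous endothelium, from few UMIs, 0.25 in pericytes, 0.30 in CD4 T cells and 0.25 in natural killer cells, and -0.20 in neutrophils.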

How the results depend on the processing

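Over all cells and in the median over classes, the members' log2 fold changes under RLE factors, library size, DESeq2, no filter, a stricter cell filter and, for classes, a stricter gate moved by less than the spread between replicates. With 1 library left out, Nr3c2 over all cells ranged from -0.63 to -0.48 and its median over classes from -0.49 to -0.22, the latter without control 1. For Nr3c2 the log2 ratio with each class weighted equally was -0.38. List genes called over all cells were 0 in the main test and 21 with DESeq2. Over classes they numbered 41, against 165 with DESeq2, 279 with no filter on low counts and 33 with adjustment over all classes together, and 11 to 38 with 1 library left out. With Spearman correlations 2, 0 and 1 of the 5 most similar genes remained. The replicate numbers were not taken as pairs. Correlations of deviations were 0.12, -0.02 and 0.13 for same-numbered samples and -0.16 to 0.04 for the others, which with 3 mice per group cannot settle pairing. With the numbers as a replicate block, Nr3c2 over all cells was -0.56 and 47 list calls were made. Low counts limit Hsd11b1 in endothelium and every member in alveolar type 1 cells.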
